A study of Mus musculus with 24 samples.

Results

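Kit, the receptor that marks spermatogonia committed to differentiate, is described here with 6 genes known for their part in spermatogonial differentiation and the approach to meiosis: Dmrt1, Dmrtb1, Sohlh1, Sohlh2, Rhox13 and Uchl1. The 7 genes were taken by symbol from the 52323 rows of the deposited tables by a rule that uses no measured value, but they were proposed with earlier results of these data known, and all 7 passed the filter on low levels in every table. Cells were sorted by ploidy from the testis of wild-type NMRI mice in which spermatogenesis had been synchronised by giving WIN18,446, which blocks the synthesis of retinoic acid, and then retinoic acid itself, a treatment that all groups share. At 24 days after birth the animals received 2 mg of 5-ethynyluridine (EU), a uridine analogue taken up into new RNA, and were left for 3 h. Total RNA and EU-labelled (nascent) RNA were sequenced in 12 libraries each. In each assay these were 3 libraries of spermatogonia from 2 animals, 1 of preleptotene spermatocytes, 4 of leptotene spermatocytes from 3 animals and 4 of pachytene spermatocytes from 2 animals. The labels give the animals different numbers in the 2 assays, and the assays were compared as unpaired. Values are FPKM (fragments per kilobase of transcript per 1000000 fragments), which are per length and so can be compared between genes. Means are over animals, with the SD between animals. The p-values rest on the spread between as few as 2 animals a stage, which the test (limma) draws toward that of genes of like level.

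KIT is a receptor tyrosine kinase. Its ligand, made by Sertoli cells, keeps differentiating spermatogonia alive and dividing, and retinoic acid turns on Kit as undifferentiated cells commit. SOHLH1 and SOHLH2 are basic helix-loop-helix transcription factors that bind E-box sequences, and loss of either blocks differentiation and lowers Kit. DMRT1 and DMRTB1 (also called DMRT6) belong to the DM-domain family of transcription factors. DMRT1 restrains premature entry into meiosis in spermatogonia, and DMRTB1 is known for the passage from the mitotic to the meiotic programme. RHOX13 is a homeobox protein of germ cells encoded on the X chromosome, which is silenced in pachytene cells of the male. UCHL1 is a deubiquitinating enzyme long used as a marker of spermatogonia.

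On mm10 with GENCODE M21, Kit lies on the plus strand of chromosome 5 at 75574916 to 75656722 and Uchl1 on the plus strand of the same chromosome at 66676091 to 66687234. Dmrt1 is on chromosome 19 at 25505618 to 25604329 (plus), and Dmrtb1 on chromosome 4 at 107676290 to 107684230 (minus). Sohlh1 is on chromosome 2 at 25842995 to 25847248 (minus), Sohlh2 on chromosome 3 at 55182028 to 55209957 (plus) and Rhox13 on chromosome X at 38121219 to 38129967 (plus). All 7 are protein-coding. Values are per gene over its transcripts, so no isoform is resolved. Uchl1 overlaps the start of Uchl1os on the opposite strand. The use of strand in counting is not given in the sources used here. Uchl1os was listed at 0 to 0.322 FPKM in total RNA and 0 to 0.324 in nascent RNA.

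Promoter sequence is shown for Kit, Sohlh1 and Sohlh2, which belong to the same regulatory circuit and whose RNA fell together, and for Dmrtb1, whose RNA did not. It is taken from the RefSeq table of GRCm38.p6, which held 6 of the 7 genes (Dmrt1 was the exception), and runs 5′ to 3′ on the strand of the gene, upstream of its start. Capitals mark the E-box CANNTG, searched on both strands, which for this palindromic pattern are the same sites.
Kit, chr5:75574737-75574915 (plus): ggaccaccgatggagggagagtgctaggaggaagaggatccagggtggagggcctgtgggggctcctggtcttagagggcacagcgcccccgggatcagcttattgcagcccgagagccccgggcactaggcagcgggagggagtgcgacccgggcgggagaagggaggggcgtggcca
Sohlh1, chr2:25847249-25847498 (minus): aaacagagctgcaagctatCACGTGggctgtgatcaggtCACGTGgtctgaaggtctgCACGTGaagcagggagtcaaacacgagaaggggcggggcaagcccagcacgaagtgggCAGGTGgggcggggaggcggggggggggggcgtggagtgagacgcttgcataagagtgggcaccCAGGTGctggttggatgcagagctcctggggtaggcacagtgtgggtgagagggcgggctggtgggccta
Sohlh2, chr3:55181794-55182027 (plus): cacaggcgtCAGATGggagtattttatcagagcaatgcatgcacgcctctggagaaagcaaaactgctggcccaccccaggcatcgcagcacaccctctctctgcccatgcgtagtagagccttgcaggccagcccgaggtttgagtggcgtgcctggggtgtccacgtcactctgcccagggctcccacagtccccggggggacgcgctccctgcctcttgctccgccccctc
Dmrtb1, chr4:107684231-107684480 (minus): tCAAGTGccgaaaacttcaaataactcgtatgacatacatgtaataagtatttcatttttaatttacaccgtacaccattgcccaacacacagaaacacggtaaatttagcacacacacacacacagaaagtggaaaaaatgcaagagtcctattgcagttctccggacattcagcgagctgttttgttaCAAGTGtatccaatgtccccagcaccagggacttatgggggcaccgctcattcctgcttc
The window from 250 bases before to 50 bases after the RefSeq start held 5 E-boxes in Sohlh1, of which 3 read CACGTG and 2 CAGGTG. It held 3 in Dmrtb1, 1 each in Kit, Sohlh2 and Rhox13, and 0 in Uchl1. The Kit site lies after the start and 1 of the Dmrtb1 sites spans it, and neither is printed. CANNTG was in 72.3% of the 32851 promoter windows of the table (median 1 per window), and 5 or more were in 2.1% of them. The core ACATTGT, searched on both strands as the DM-domain motif, was in 2.96% of windows and in 0 of the 6.

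The depth implied by the steps between low FPKM values was 7.16 M to 16.09 M reads (M, 1000000; median 12.66 M) in total and 5.112 M to 10.23 M (median 7.07 M) in nascent libraries. ERCC spike-ins, added after RNA extraction, made up 2.49% to 8.19% of summed FPKM in total libraries and 5.01% to 76.5% in nascent ones. Every nascent FPKM is therefore set in part by that share, and results for nascent RNA are given with a median-ratio scaling where it changes a call. Leptotene library 2 stood apart. Its summed level of 10 pachytene markers in total RNA was 2091 FPKM, against 104 to 155 in the other leptotene and 2549 to 3039 in the pachytene libraries. Its Spearman correlation over genes in total RNA was 0.874 to 0.904 with pachytene and 0.528 to 0.569 with the other leptotene libraries. It shares its animal with leptotene library 1 (IND1 in total and IND5 in nascent RNA). The fits average these libraries, so without library 1 that animal is represented by library 2 alone. Of the 9 spermatogonial markers 4 are among the 7 genes, so the sum of the other 5 (Gfra1, Zbtb16, Sall4, Stra8 and Lin28a) is used here. Pachytene library 3 held 9.94 FPKM of these in total RNA, against 0.886 to 1.35 in the other pachytene libraries, and 6.94 against 0.714 to 1.82 in nascent RNA. Leptotene libraries 2 and 3 and pachytene library 3 are absent from the authors' 5S-corrected table, and fits on the remaining 9 libraries of each assay are given as a check. Markers of somatic cells were high in the spermatogonia libraries. The 14 Sertoli cell markers summed to 168 to 230 FPKM in total RNA of spermatogonia, 9.03 to 39.8 in leptotene and 2.47 to 6.08 in pachytene. The 8 Leydig cell markers summed to 185 to 461, 2.002 to 21.3 and 4.58 to 7.89 FPKM, the 8 peritubular and vascular markers to 183 to 408, 2.81 to 14.1 and 1.59 to 2.14 FPKM, and the 7 of blood cells and macrophages to 36.0 to 42.7, 0.833 to 4.29 and 1.07 to 1.84 FPKM. Each of these markers was above 0 in at least 1 spermatogonia library of total RNA, and 3 of the Sertoli and 2 of the Leydig markers were at 0 in all pachytene libraries. The 5 spermatogonial markers summed to 73.5 to 190 FPKM in total RNA of spermatogonia. The 10 markers of early meiotic prophase summed to 118 to 251 FPKM in leptotene, 74.6 to 143 in spermatogonia and 99.6 to 152 in pachytene, and the leptotene low of 118 was library 2. Leptotene library 3 resembled spermatogonia as well as leptotene. Its Spearman correlation over genes was 0.766 to 0.862 with the spermatogonia libraries in nascent RNA, against 0.773 and 0.779 with leptotene libraries 1 and 4 and 0.594 with library 2. In total RNA it was 0.739 to 0.853 with spermatogonia and 0.841 and 0.846 with leptotene libraries 1 and 4. In nascent RNA its early meiotic markers summed to 206 FPKM, within the 131 to 276 of spermatogonia and below the 352 and 316 of leptotene libraries 1 and 4. The part of these cells in the levels below was not tested.

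**Figure D1:**
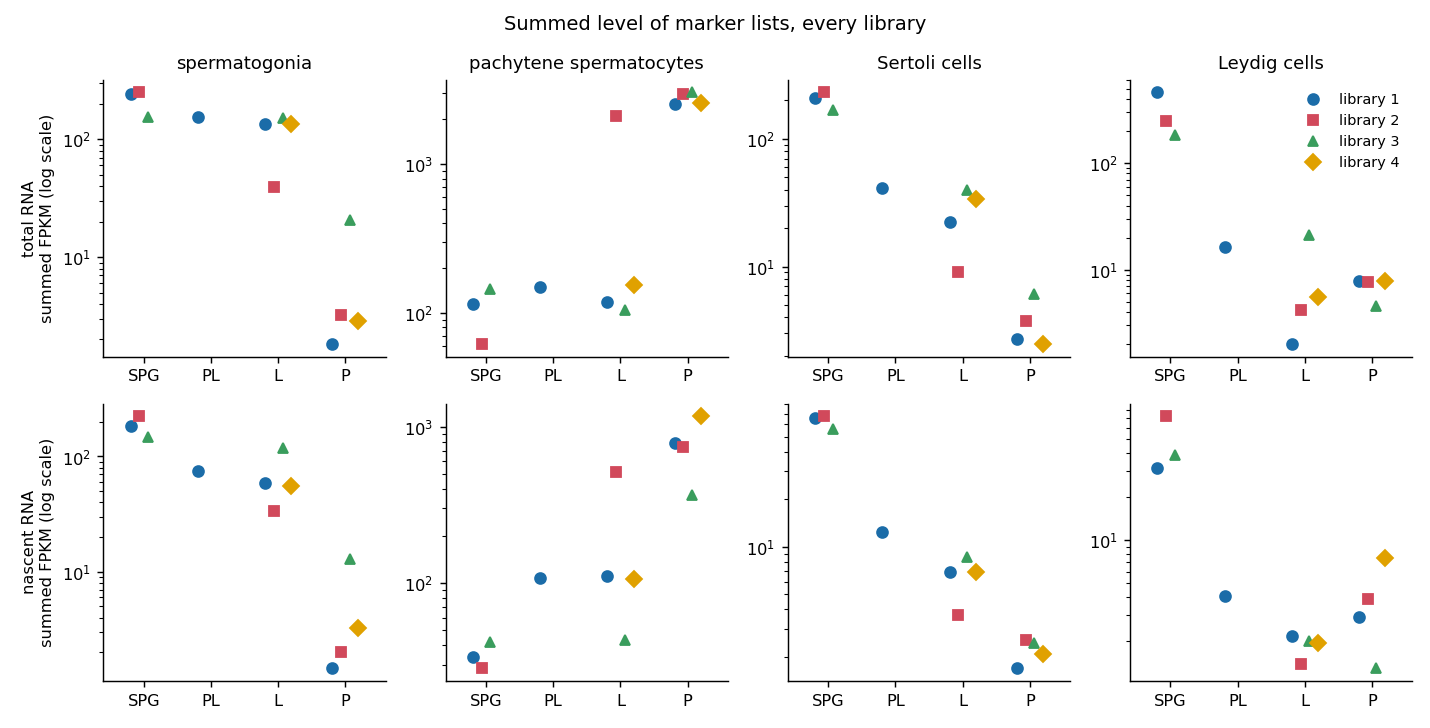
Summed FPKM of 4 marker lists (columns) in total (top) and nascent RNA (bottom) on log axes, by stage: SPG spermatogonia, PL preleptotene, L leptotene, P pachytene; each point is 1 library. Leptotene library 2 sits near the pachytene libraries in the pachytene markers, pachytene library 3 sits above its group in the spermatogonial markers, and Sertoli and Leydig markers are highest in spermatogonia. The spermatogonial list here holds 4 of the 7 genes.

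Kit RNA was present up to leptotene and low in pachytene cells. Total RNA of Kit was 11.5, 2.49 and 15.4 FPKM in the 3 spermatogonia libraries, 8.42 in preleptotene, 1.82, 2.24, 3.45 and 11.4 in leptotene and 0.0283, 0.119, 1.11 and 0.202 in pachytene. Spermatogonia and leptotene overlapped, with spermatogonia library 2 below leptotene libraries 3 and 4, while every pachytene library lay below every other. The mean level was 11.2 ± 5.96 FPKM in spermatogonia (SD, n = 2 animals), 5.62 ± 5.03 in leptotene (n = 3) and 0.366 ± 0.291 in pachytene (n = 2), 15.3-fold lower than in leptotene. Kit fell from leptotene to pachytene by a log2 difference of -2.07 ± 0.61 (SE) with a limma adjusted p of 0.0256, and from spermatogonia to pachytene it fell by 2.99 ± 0.67 (adjusted p = 0.00548). With the animal as a block these calls were lost, at -1.94 ± 0.87 (adjusted p = 0.118) and -2.71 ± 1.06 (adjusted p = 0.063). In each assay 1 animal gave both leptotene and pachytene libraries (IND4 in total and IND8 in nascent RNA, each with leptotene library 3 and pachytene libraries 2 and 4), so every block value from leptotene to pachytene is the difference within that animal. No animal gave both spermatogonia and pachytene libraries. Block values of that step join this difference with those from spermatogonia to leptotene in other animals (IND1 and IND3 in total, IND5 and IND7 in nascent RNA). The block leaves little with which to measure the spread. The call from leptotene was also lost with spike-in scaling (-1.69 ± 0.72, adjusted p = 0.0698) and with no filter on low values (adjusted p = 0.0889).

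Nascent Kit was 8.11, 12.7 and 16.6 FPKM in spermatogonia, 3.18 in preleptotene, 4.38, 1.76, 14.2 and 4.03 in leptotene and 0.154, 0.0678, 0.653 and 0.221 in pachytene. Leptotene library 3, the one that resembled spermatogonia across genes, reached their level, and the other 3 leptotene libraries lay below all of them. The part of that resemblance in the Kit level was not tested. The fall from leptotene to pachytene was -2.40 ± 0.56 (adjusted p = 0.00897) and from spermatogonia to pachytene -3.48 ± 0.61 (adjusted p = 0.00133). The first of these missed the threshold with no filter on low values (adjusted p = 0.0593). Between spermatogonia and leptotene the nascent difference was -1.08 ± 0.56 (adjusted p = 0.268). It was called with the animal as a block (-1.67 ± 0.62, adjusted p = 0.0362), without leptotene library 3 (-1.67, adjusted p = 0.0124) and in the 9-library fit (-1.43 ± 0.29, adjusted p = 0.0103).

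Animals that gave both stages did not move alike in total RNA. In animal IND1 Kit was 15.4 FPKM in spermatogonia and a mean of 2.03 in leptotene, while in IND3 it was 6.97 and 11.4. In nascent RNA Kit was lower in leptotene in both shared animals, at 3.07 against 16.6 FPKM in IND5 and 4.03 against 10.4 in IND7. Leptotene libraries 1 and 2 of total RNA both came from IND1, so without library 1 only library 2 stood for it. Without leptotene library 1 the fall from leptotene in total RNA lost its call, at -2.11 with a limma adjusted p of 0.185. It was also lost without spermatogonia library 1 (adjusted p = 0.0518), leptotene library 4 (0.0574) or pachytene library 1 (0.0529), and without either pachytene animal (0.0979 and 0.145). The fall from spermatogonia was lost without spermatogonia library 3 (-2.33, adjusted p = 0.0649). In nascent RNA the fall from leptotene was lost without leptotene library 1 (adjusted p = 0.0641) or either pachytene animal (0.076 and 0.105).

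**Figure D2:**
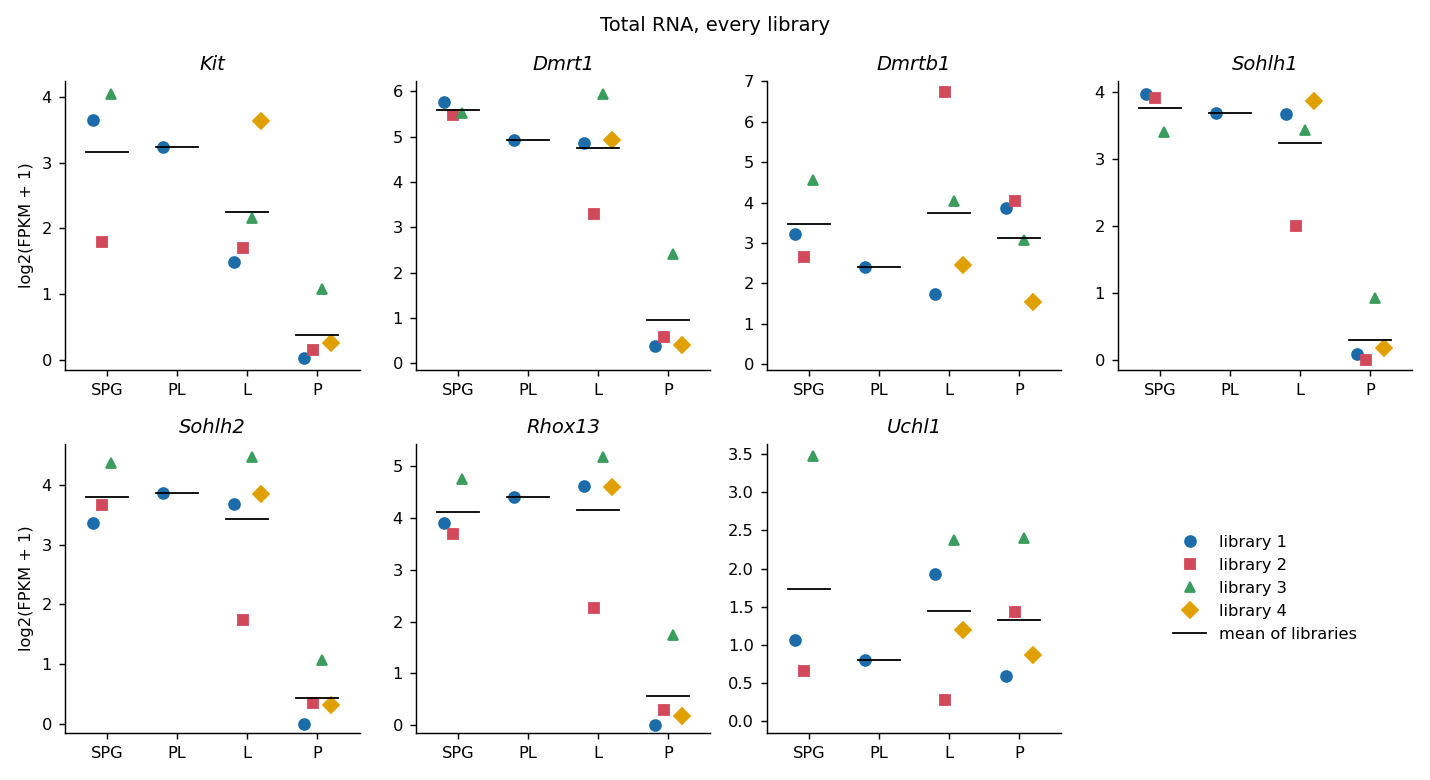
Total RNA of the 7 genes as log2(FPKM + 1) on the vertical axis, by stage (SPG spermatogonia, PL preleptotene, L leptotene, P pachytene); each point is 1 library and the line is the mean of libraries. Kit, Dmrt1, Sohlh1, Sohlh2 and Rhox13 drop in all 4 pachytene libraries, with library 3 the highest of them, while Dmrtb1 and Uchl1 overlap between stages.

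Dmrt1 was the most abundant of the 7 in spermatogonia. Its total RNA was 53.6, 43.5 and 44.7 FPKM there, 29.2 in preleptotene, 28.1, 8.74, 60.7 and 29.5 in leptotene and 0.305, 0.492, 4.36 and 0.335 in pachytene. Leptotene library 2 was the lowest and library 3 the highest of the leptotene group, and pachytene library 3 stood above the others of its stage. The means were 46.6 ± 2.72 FPKM in spermatogonia (SD, n = 2 animals), 36.2 ± 21.9 in leptotene (n = 3) and 1.37 ± 1.36 in pachytene (n = 2). Dmrt1 fell by 4.03 ± 0.54 on the log2 scale from leptotene to pachytene (limma adjusted p = 0.00314) and fell by 4.62 ± 0.59 from spermatogonia (adjusted p = 0.000982). Leptotene and spermatogonia differed by -0.59 ± 0.54 (adjusted p = 0.593), and by -0.67 ± 0.18 in the 9-library fit, which called it (adjusted p = 0.046).

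Nascent Dmrt1 was 33.5, 52.2 and 47.5 FPKM in spermatogonia, 14.4 in preleptotene, 12.5, 6.87, 44.3 and 11.3 in leptotene and 0.254, 0.701, 2.80 and 1.21 in pachytene. As for Kit, leptotene library 3 was at the level of spermatogonia and the other leptotene libraries were below all of them. Nascent Dmrt1 fell by 3.12 ± 0.60 from leptotene to pachytene (adjusted p = 0.00338) and fell by 4.47 ± 0.66 from spermatogonia (adjusted p = 0.000637). From spermatogonia to leptotene it was at -1.35 ± 0.60 (adjusted p = 0.198), called with the animal as a block (-2.02 ± 0.70, adjusted p = 0.0239), without leptotene library 3 (-2.02, adjusted p = 0.00733) and in the 9-library fit (-1.82 ± 0.32, adjusted p = 0.00647). The fall from leptotene was lost without pachytene animal IND8 (adjusted p = 0.0552). Both animals that gave spermatogonia and leptotene nascent libraries had less in leptotene, 9.69 against 47.5 FPKM in IND5 and 11.3 against 42.9 in IND7.

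Sohlh1 and Sohlh2 overlapped between spermatogonia and leptotene in total RNA and were low in pachytene. Sohlh1 was 14.6, 14.1 and 9.60 FPKM in spermatogonia, 11.9 in preleptotene, 11.8, 2.997, 9.75 and 13.5 in leptotene and 0.0655, 0, 0.894 and 0.137 in pachytene. Sohlh2 was 9.29, 11.6 and 19.7 FPKM in spermatogonia, 13.6 in preleptotene, 11.9, 2.33, 21.1 and 13.5 in leptotene and 0, 0.277, 1.11 and 0.239 in pachytene. For both genes leptotene library 2 was the lowest of the stages before pachytene, the remaining leptotene libraries lay within or close to the range of spermatogonia, and pachytene did not overlap them.

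The mean total level of Sohlh1 was 11.97 ± 3.34 FPKM in spermatogonia (SD, n = 2 animals), 10.2 ± 3.08 in leptotene (n = 3) and 0.274 ± 0.291 in pachytene (n = 2). It was at -0.30 ± 0.39 from spermatogonia to leptotene (limma adjusted p = 0.708) and fell by 3.08 ± 0.39 from leptotene to pachytene (adjusted p = 0.00314). Sohlh2 averaged 15.1 ± 6.55, 13.9 ± 7.01 and 0.406 ± 0.210 FPKM in the same stages. It was at -0.26 ± 0.52 from spermatogonia to leptotene (adjusted p = 0.808) and fell by 3.24 ± 0.52 from leptotene to pachytene (adjusted p = 0.00329). From spermatogonia to pachytene Sohlh1 fell by 3.37 ± 0.42 and Sohlh2 fell by 3.51 ± 0.57 (adjusted p = 0.000957 and 0.0015).

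Nascent Sohlh1 was low in every stage, at 3.39, 2.62 and 5.82 FPKM in spermatogonia, 1.17 in preleptotene, 0.732, 0, 3.78 and 2.31 in leptotene and 0, 0, 0.222 and 0 in pachytene. Nascent Sohlh2 was higher, at 7.09, 10.5 and 17.0 FPKM in spermatogonia, 5.51 in preleptotene, 6.65, 2.06, 14.1 and 5.48 in leptotene and 0.1396, 0.213, 0.658 and 0 in pachytene. Sohlh1 fell from spermatogonia to pachytene (-2.31 ± 0.57, adjusted p = 0.0072), and its difference from leptotene to pachytene missed the threshold (-1.39 ± 0.52, adjusted p = 0.0629). The latter step was called with the animal as a block, which is the difference within IND8 (-2.26 ± 0.75, adjusted p = 0.0196), in the 9-library fit (-1.26 ± 0.38, adjusted p = 0.0313) and without leptotene library 2 (adjusted p = 0.0306). Sohlh2 fell by 2.66 ± 0.52 from leptotene (adjusted p = 0.00384) and fell by 3.42 ± 0.57 from spermatogonia (adjusted p = 0.00105). Sohlh1 was listed at 0 in nascent libraries with implied depths of 9.17 M, 9.98 M and 5.11 M reads (pachytene 1, 2 and 4) and 6.82 M (leptotene 2), and a level too low to give reads there was not detectable. Its fall from spermatogonia was lost without spermatogonia library 3 (adjusted p = 0.0928) or either pachytene animal (0.0626 and 0.0674), and that of Sohlh2 from leptotene without pachytene animal IND8 (adjusted p = 0.0652).

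**Figure D3:**
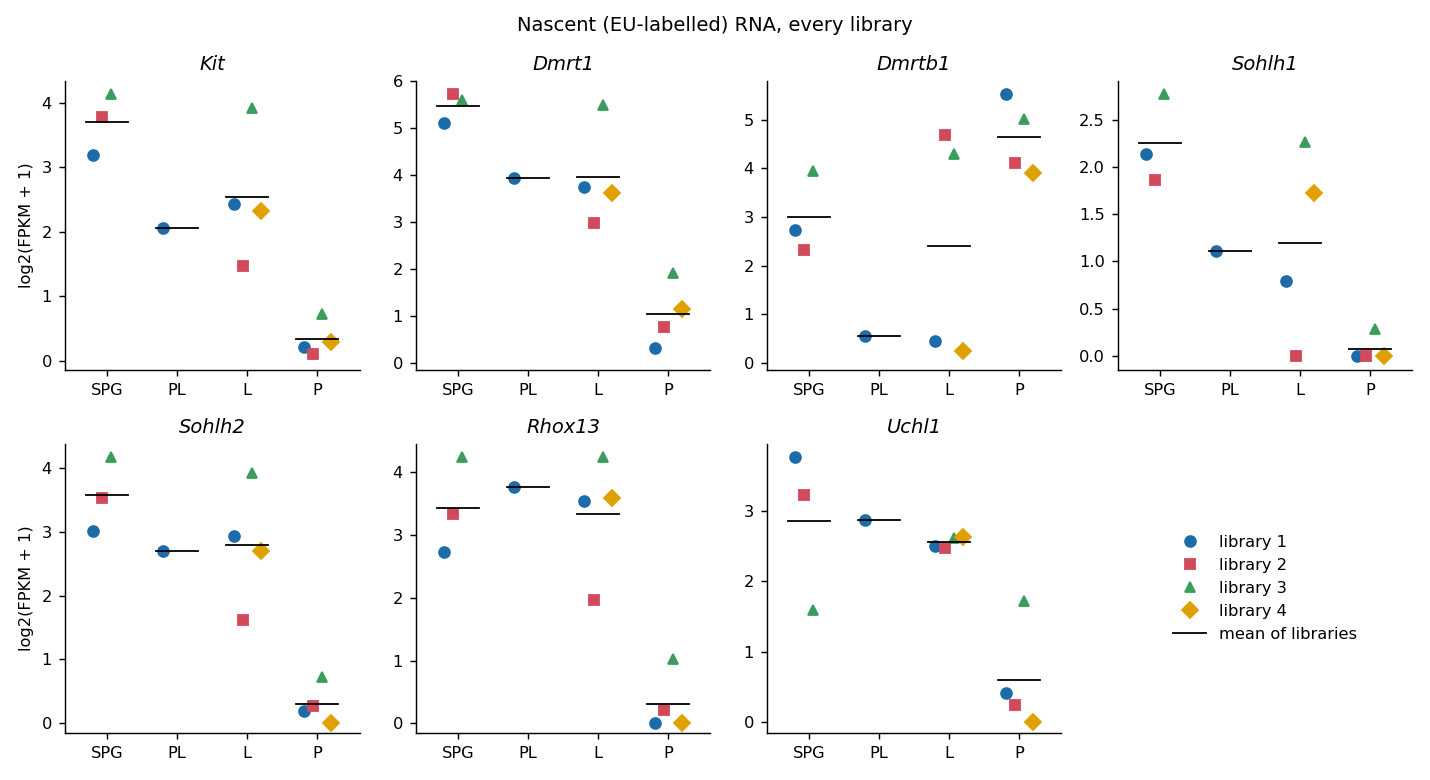
Nascent RNA of the 7 genes as log2(FPKM + 1) on the vertical axis, by stage (SPG spermatogonia, PL preleptotene, L leptotene, P pachytene); each point is 1 library and the line is the mean of libraries. Leptotene library 3 lies at the level of spermatogonia for Kit, Dmrt1, Sohlh2 and Rhox13, and Dmrtb1 is split within leptotene, with libraries 2 and 3 high and libraries 1 and 4 near 0.

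Rhox13 also overlapped between spermatogonia and leptotene and was low in pachytene. Its total RNA was 13.9, 11.96 and 26.0 FPKM in spermatogonia, 20.3 in preleptotene, 23.4, 3.82, 35.1 and 23.0 in leptotene and 0, 0.229, 2.34 and 0.13 in pachytene. Leptotene library 2 was again the lowest before pachytene and pachytene library 3 the highest of its stage. The means were 19.5 ± 9.21 FPKM in spermatogonia (SD, n = 2 animals), 23.9 ± 10.8 in leptotene (n = 3) and 0.674 ± 0.6997 in pachytene (n = 2). The difference from spermatogonia to leptotene was 0.12 ± 0.54 (limma adjusted p = 0.92; -0.17 with spike-in scaling and -0.26 with the animal as a block), and Rhox13 then fell by 3.85 ± 0.54 to pachytene (adjusted p = 0.00314).

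Nascent Rhox13 was 5.63, 9.08 and 17.8 FPKM in spermatogonia, 12.6 in preleptotene, 10.6, 2.88, 17.9 and 11.1 in leptotene and 0, 0.161, 1.04 and 0 in pachytene. Spermatogonia and leptotene spanned nearly the same range, and pachytene did not overlap them. The nascent difference was -0.11 ± 0.53 from spermatogonia to leptotene (adjusted p = 0.932) and -3.22 ± 0.53 from leptotene to pachytene, a fall with an adjusted p of 0.00165. The sign of the first of these changed with scaling, to 0.04 with spike-in and 0.08 with median-ratio scaling. In the 2 animals of total RNA that gave both stages it was 26.0 FPKM in spermatogonia and 13.6 in leptotene (IND1) and 12.9 and 23.0 (IND3).

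Dmrtb1 was not called lower in pachytene cells in either assay. Its total RNA was 8.27, 5.31 and 22.6 FPKM in spermatogonia, 4.30 in preleptotene, 2.35, 106, 15.5 and 4.45 in leptotene and 13.7, 15.6, 7.43 and 1.89 in pachytene. All stages overlapped, and leptotene library 2 held far more than any other library. The means were 14.7 ± 11.1 FPKM in spermatogonia (SD, n = 2 animals), 24.8 ± 26.2 in leptotene (n = 3) and 9.64 ± 1.295 in pachytene (n = 2). No step passed the test in total RNA: the differences were -0.17 ± 0.65 from spermatogonia to leptotene, -0.45 ± 0.65 from leptotene to pachytene and -0.61 ± 0.71 from spermatogonia to pachytene (limma adjusted p = 0.908, 0.605 and 0.491). The step to pachytene turned to 1.24 ± 0.64 in the 9-library fit (adjusted p = 0.154) and to 0.44 with spike-in scaling.

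Nascent Dmrtb1 was 5.597, 4.01 and 14.5 FPKM in spermatogonia, 0.467 in preleptotene, 0.366, 24.5, 18.5 and 0.181 in leptotene and 45.1, 16.3, 31.1 and 14.0 in pachytene. Preleptotene and leptotene libraries 1 and 4 were below every other library, and leptotene libraries 2 and 3 were above all 3 spermatogonia libraries. In library 2 the pachytene markers were high in nascent RNA too, at 514 FPKM against 366 to 1160 in pachytene. In library 3 they were at 43.4, near the 28.5 to 41.8 of spermatogonia, and the 5 spermatogonial markers summed to 50.3 FPKM, above the 20.3 to 36.8 of the other leptotene and below the 75.0 to 147 of the spermatogonia libraries. The part of either list in the Dmrtb1 values was not tested.

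The nascent step from leptotene to pachytene was 2.28 ± 0.96 for Dmrtb1 (adjusted p = 0.0941). It was called without leptotene library 3 (3.24, adjusted p = 0.0106) and in the 9-library fit (4.42 ± 0.63, adjusted p = 0.00154). With the animal as a block it was -0.27 ± 0.95 (adjusted p = 0.906), which rests on IND8, the animal that gave leptotene library 3 and pachytene libraries 2 and 4, where Dmrtb1 was 18.5 FPKM in leptotene and 15.2 in pachytene. From spermatogonia to leptotene it was at -0.88 ± 0.96 (adjusted p = 0.635), and was called lower with the block (-1.84 ± 0.67, adjusted p = 0.0354) and in the 9-library fit (-2.89 ± 0.63, adjusted p = 0.0134). In animal IND6 nascent Dmrtb1 was 0.467 FPKM in preleptotene and 38.1 in pachytene, and no test is possible with 1 preleptotene library.

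Uchl1 was low in total RNA, with no step that passed the test. Its total RNA was 1.09, 0.580 and 10.1 FPKM in spermatogonia, 0.747 in preleptotene, 2.82, 0.213, 4.18 and 1.29 in leptotene and 0.506, 1.70, 4.26 and 0.828 in pachytene. The high level in spermatogonia came from library 3 alone, the only spermatogonia library of animal IND1, and the other 2 spermatogonia libraries were below several meiotic ones. The differences were -0.61 ± 0.70 from spermatogonia to leptotene, -0.23 ± 0.70 from leptotene to pachytene and -0.85 ± 0.77 from spermatogonia to pachytene (limma adjusted p = 0.67, 0.808 and 0.382). Without spermatogonia animal IND3 the last of these became -2.15 (adjusted p = 0.0303).

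Nascent Uchl1 was 12.6, 8.33 and 2.03 FPKM in spermatogonia, 6.31 in preleptotene, 4.63, 4.57, 5.13 and 5.21 in leptotene and 0.330, 0.184, 2.30 and 0 in pachytene. The 4 leptotene libraries lay close together and above all 4 pachytene libraries, and pachytene library 3 was above spermatogonia library 3. Nascent Uchl1 fell by 1.98 ± 0.54 from leptotene to pachytene (adjusted p = 0.0188) and fell by 1.95 ± 0.59 from spermatogonia (adjusted p = 0.0212). The first call was lost without leptotene library 1, pachytene library 1 or either pachytene animal, and the second without pachytene library 1, either pachytene animal or spermatogonia animal IND7 (-1.003, adjusted p = 0.22). Both calls were lost with median-ratio scaling (-1.67 and -1.53) and with no filter on low values (adjusted p = 0.0907 and 0.0828), and the second also with the animal as a block (-2.48 ± 1.03, adjusted p = 0.052). In total RNA the spermatogonia library with the most Uchl1 was library 3, and in nascent RNA it was library 1, from another animal.

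Across the 7 genes, 0 passed the test from spermatogonia to leptotene in total RNA, where 9.87% of the 19202 genes tested were called, and 0 in nascent RNA, where 10.6% of 16375 were. At an unadjusted p under 0.05 the count was 0 in total and 1 in nascent RNA (Dmrt1). Genes also pass that threshold by chance, and the share of all genes that did is not given here. From leptotene to pachytene 5 of 7 fell in total RNA (Kit, Dmrt1, Sohlh1, Sohlh2 and Rhox13) and 5 of 7 in nascent RNA (Kit, Dmrt1, Sohlh2, Rhox13 and Uchl1), against 17.9% and 15.8% of all genes that fell. From spermatogonia to pachytene 5 and 6 of 7 fell, against 29.8% and 27.9%. The same 5 genes fell in both pachytene comparisons of total RNA in the 9-library fit, where 27.6% and 34.9% of all genes fell. That fit also called Dmrt1 lower in leptotene than in spermatogonia in total RNA, where 18.7% of all genes fell. In nascent RNA the block and the 9-library fit each called Kit, Dmrt1 and Dmrtb1 lower in leptotene than in spermatogonia, beside 14.2% and 23% of all genes that fell. From leptotene to pachytene in nascent RNA the block, which rests on IND8 alone, gave 6 falls, all but Dmrtb1, beside 7.25% of all genes, and the 9-library fit gave the same 6 and the rise of Dmrtb1, beside 29.8% that fell and 22.2% that rose. From spermatogonia to pachytene 5 and 6 fell, beside 17.7% and 34.2%. With the animal as a block 4 of the 5 in total RNA fell, without Kit, against 9.68% and 17.5%. Without leptotene library 1, 0 of the 7 and 9 of all genes were called from leptotene to pachytene in total RNA, with Dmrt1 at -3.77, Rhox13 at -3.46, Sohlh2 at -2.92 and Sohlh1 at -2.79 (limma adjusted p = 0.164, 0.167, 0.175 and 0.167). In that fit library 2 alone stood for the leptotene of IND1, where the main fit averages libraries 1 and 2. With spike-in scaling 0 genes of any kind were called in nascent RNA. From leptotene to pachytene 599 genes had an unadjusted p under 0.05 there, a threshold that genes also pass by chance. All 4 pachytene libraries lay below all 4 leptotene libraries for 5 of 7 genes in each assay, as they did for 21.2% of all genes in total and 18.7% in nascent RNA. In these bulk samples fewer cells of a type and less RNA per cell cannot be told apart.

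**Figure D4:**
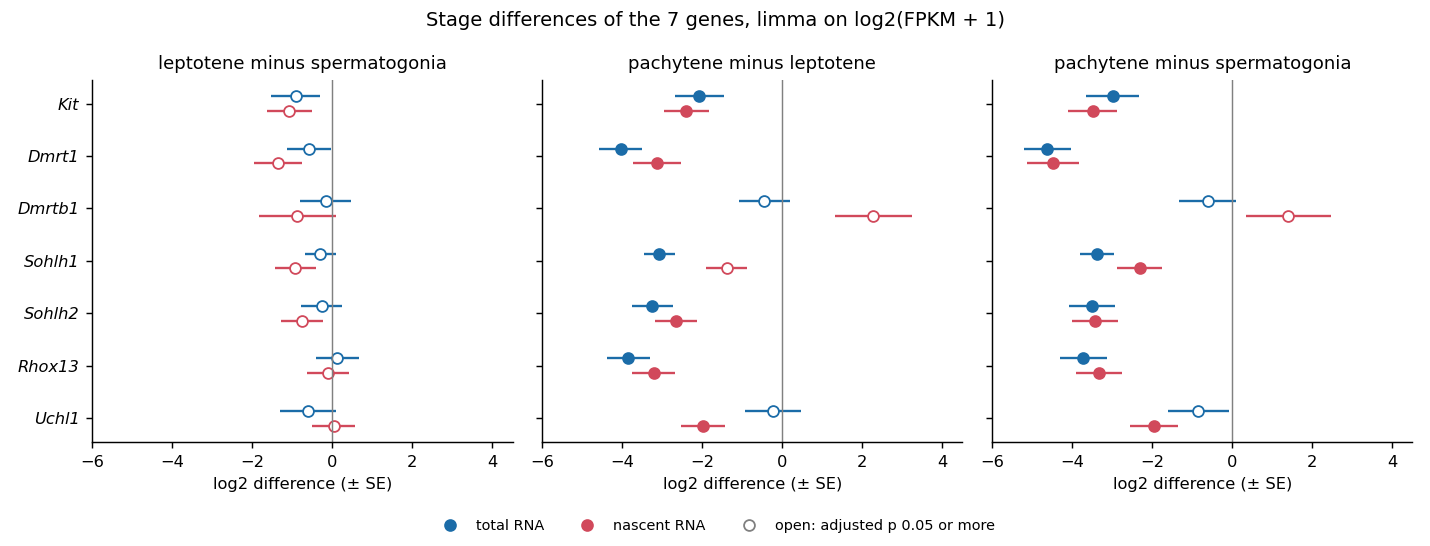
Log2 differences between stages of the 7 genes from limma (horizontal axis, bars are the SE) in total RNA (blue) and nascent RNA (red); filled points have an adjusted p under 0.05. No gene passes from spermatogonia to leptotene, and Kit, Dmrt1, Sohlh2 and Rhox13 pass in both assays in both pachytene comparisons.

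The assays were set against each other as the change in total RNA minus the change in nascent RNA. None of the 7 genes was called in any of the 3 steps, and nearly no gene was: 0%, 0.0251% and 0.0126% of 15914. From leptotene to pachytene the differences of largest size were -2.72 ± 1.33 for Dmrtb1 (limma adjusted p = 0.737), 1.75 ± 0.96 for Uchl1 (adjusted p = 0.77) and -1.69 ± 0.69 for Sohlh1 (adjusted p = 0.709). Kit was at 0.33 ± 0.90 (adjusted p = 0.975), and Dmrt1, Sohlh2 and Rhox13 were at -0.91, -0.58 and -0.63. At an unadjusted p under 0.05, 1 of the 7 (Sohlh1) stood in that step, and the share of all genes at that threshold is not given here. From spermatogonia to leptotene 6 of the 7 were above 0, from 0.16 for Kit to 0.76 for Dmrt1, with Uchl1 at -0.65, all with an SE of 0.69 or more. In the 9-library fit Sohlh1 was called from leptotene to pachytene (-2.42 ± 0.49, adjusted p = 0.0401). The count of all genes called there is given with the alternatives below. Nascent Sohlh1 in these libraries was 0.732 and 2.31 FPKM in leptotene and 0 in pachytene, so its nascent fall could go no further. Total Sohlh1 started from 11.8 and 13.5 FPKM. In the main fit nascent Sohlh1 was also near this floor in pachytene, at 0 to 0.222 FPKM. Libraries of the same stage and number deviated together in the 2 assays, though leptotene libraries 1 and 4 correlated more with another number of their stage. A fit that pairs them by number called 0, 8 and 7 of all genes in the 3 steps, with none of the 7 among them. In that fit Dmrtb1 from leptotene to pachytene was at -2.72 ± 0.66 (adjusted p = 0.146).

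The deposited 5S-corrected table multiplies each nascent library by its own constant, from 0.441 in leptotene library 4 to 5.08 in pachytene library 2, and so changes the levels between libraries but not between genes. On this scale Kit was 31.7, 34.6 and 15.7 in spermatogonia, 1.48 in preleptotene, 2.58 and 1.77 in leptotene and 0.271, 0.345 and 0.503 in pachytene. Dmrt1 was 131, 142 and 44.8 in spermatogonia, 6.74 in preleptotene, 7.36 and 4.97 in leptotene and 0.448, 3.56 and 2.74 in pachytene. In these libraries Kit was 11.2-fold and Dmrt1 14.7-fold lower in leptotene than in spermatogonia, against 1.91-fold and 2.08-fold in the uncorrected FPKM of all libraries. The table lacks leptotene library 2 and also library 3, the one in which nascent Kit and Dmrt1 were at the level of spermatogonia, so the set of libraries differs as well as the scale. On the same 9 libraries the log2 differences without the correction were -1.43 ± 0.29 for Kit and -1.82 ± 0.32 for Dmrt1.

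From spermatogonia to leptotene 5 of the 7 genes fell in the 5S-corrected table: Kit (-2.62 ± 0.67), Dmrt1 (-3.34 ± 0.84), Dmrtb1 (-3.02 ± 0.84), Sohlh1 (-1.84 ± 0.52) and Sohlh2 (-2.22 ± 0.68), all with a limma adjusted p of 0.009 or less. Of all 15839 genes 27.2% fell there and the median gene was at -1.0. Rhox13 and Uchl1 were at -1.55 and -1.40 and were not called. From leptotene to pachytene only Rhox13 fell (-1.85 ± 0.70, adjusted p = 0.0276) and Dmrtb1 rose (5.03 ± 0.84, adjusted p = 7.15e-08), while 1.55% of all genes fell and 32.4% rose, with a median of 0.86. Dmrt1 and Dmrtb1 had the same SE of 0.84 in this fit, which held 2 animals a stage. The p-values of this fit rest mainly on the spread pooled over genes. One as small as 7.15e-08 overstates what 2 animals a stage can show. Kit was at -0.86 ± 0.67 (adjusted p = 0.34) and Dmrt1 at -1.22 ± 0.84 (adjusted p = 0.269), so the calls of these genes at this step depended on the scale. From spermatogonia to pachytene the other 6 genes fell and Dmrtb1 rose (2.004 ± 0.84, adjusted p = 0.0425), beside 23.1% of all genes that fell and 18.7% that rose.

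Dmrtb1 on the corrected scale was 21.9, 10.9 and 13.6 in spermatogonia, 0.218 in preleptotene, 0.215 and 0.0800 in leptotene and 79.3, 82.8 and 31.9 in pachytene. The 2 leptotene libraries and the preleptotene library were near 0, and each pachytene library was above each spermatogonia library. The leptotene libraries absent here, 2 and 3, are those with high nascent Dmrtb1 (24.5 and 18.5 FPKM). On the same 9 libraries without the correction the step from leptotene to pachytene was 4.42 ± 0.63, against 5.03 ± 0.84 with it and 2.28 ± 0.96 in all libraries uncorrected. Sohlh1 was listed at 0 in all 3 pachytene libraries. Uchl1 was 49.1, 22.7 and 1.91 in spermatogonia, against 2.72 and 2.29 in leptotene, so its spermatogonia level again differed by animal.

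**Figure D5:**
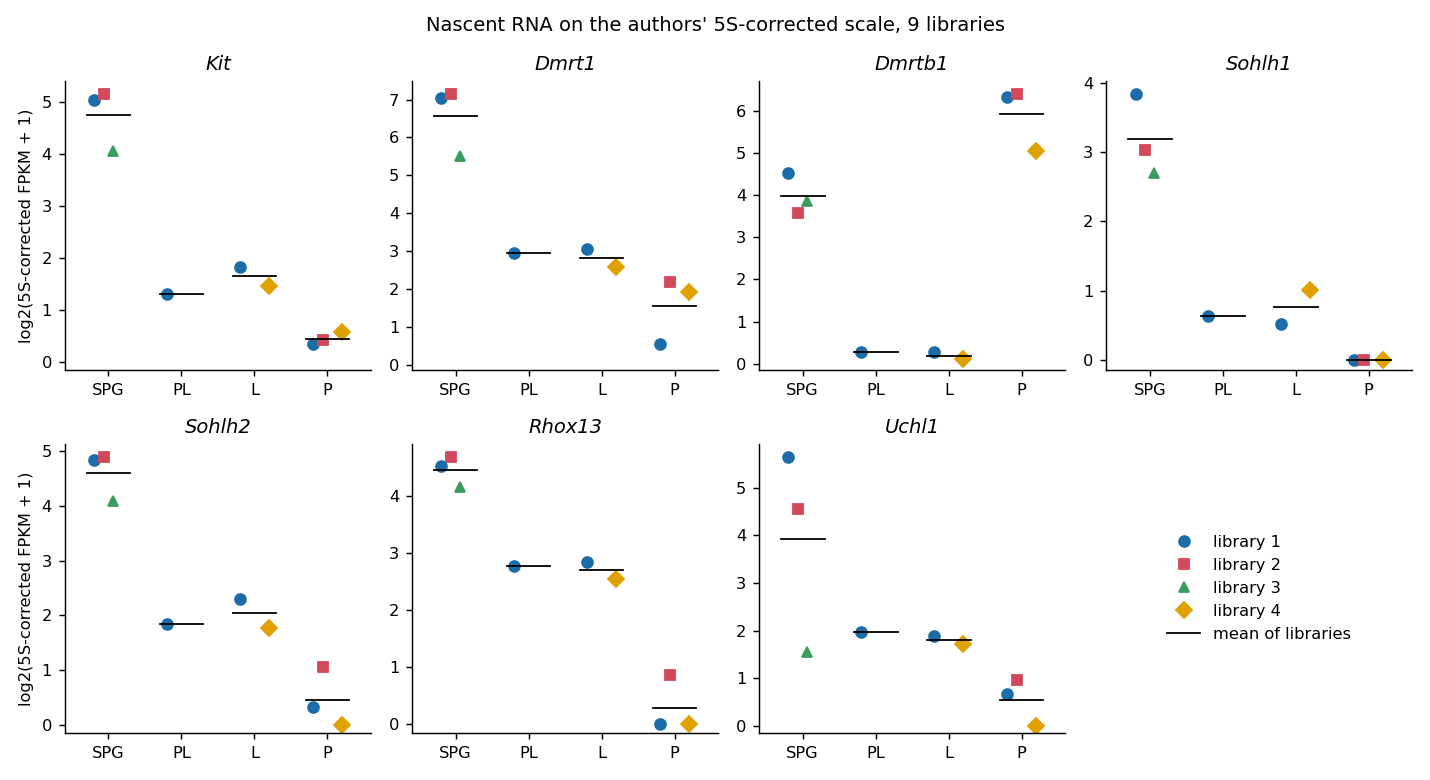
The authors' 5S-corrected nascent level of the 7 genes as log2(value + 1) on the vertical axis, by stage (SPG spermatogonia, PL preleptotene, L leptotene, P pachytene); each point is 1 of 9 libraries and the line is their mean. Kit, Dmrt1, Sohlh1, Sohlh2 and Rhox13 are lower in both leptotene libraries than in all spermatogonia libraries. The share of all genes that do so is not given here. Dmrtb1 is near 0 in preleptotene and leptotene and highest in pachytene.

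The preleptotene stage had 1 library in each assay and so has values only. In total RNA Kit (8.42 FPKM), Sohlh1 (11.9), Sohlh2 (13.6), Rhox13 (20.3) and Uchl1 (0.747) were within the range of the spermatogonia libraries, while Dmrt1 (29.2) and Dmrtb1 (4.30) were below it. In nascent RNA Kit, Dmrt1, Dmrtb1, Sohlh1 and Sohlh2 were below all spermatogonia libraries, and Rhox13 (12.6) and Uchl1 (6.31) were within their range. In total RNA each of these genes was also within the leptotene range, which was wide (Kit 1.82 to 11.4 FPKM). So was each in nascent RNA but Uchl1, which lay above the leptotene values of 4.57 to 5.21. Over genes the preleptotene library correlated (Spearman, total RNA) at 0.900, 0.531, 0.851 and 0.914 with leptotene libraries 1 to 4. With spermatogonia it was at 0.701 to 0.802. In nascent RNA these were 0.913, 0.599, 0.790 and 0.910, and 0.598 to 0.696. In animal IND2, which gave preleptotene and pachytene total RNA, Dmrt1 was 29.2 and 2.33 FPKM and Sohlh2 13.6 and 0.555.

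Ordered by mean total RNA, spermatogonia ran from Dmrt1 (46.6 FPKM) through Rhox13 (19.5), Sohlh2 (15.1), Dmrtb1 (14.7), Sohlh1 (11.97) and Kit (11.2) to Uchl1 (5.47). Only Dmrt1 was above every library of the other 6 genes, and the levels of the next 5 overlapped. In leptotene the order was Dmrt1, Dmrtb1, Rhox13, Sohlh2, Sohlh1, Kit and Uchl1, in which Dmrtb1 took the second place through library 2. In pachytene Dmrtb1 (9.64 FPKM) and Uchl1 (1.82) led, and the other 5 were at 0.274 to 1.37.

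Over the 12 total RNA libraries, which share stages, animals and depth, Dmrt1, Sohlh1, Sohlh2 and Rhox13 ran together on the log2 scale (Pearson r of 0.956 to 0.990 for their 6 pairs). Kit correlated with these 4 at 0.837 to 0.844 in total and 0.908 to 0.983 in nascent RNA. Dmrtb1 correlated with the other 6 at -0.143 to 0.032 in total RNA. Among 7345 other genes with at least 5 FPKM in a stage, those most like Kit were App (r = 0.935), Pacs2 (0.928), Slc38a2 (0.92), Lzts2 (0.914) and Kctd6 (0.909). App averaged 20.5, 17.1 and 0.984 FPKM in spermatogonia, leptotene and pachytene. Ppp1ca and Hcfc1 were most like Dmrt1 (both 0.993), Kdm1b and Cul4b most like Sohlh1 (0.995), Foxn2 and Phlpp1 most like Sohlh2 (0.994) and AU022751 and Nptx2 most like Rhox13 (0.995). For Dmrtb1 they were Usp2 (0.855) and Fbxo3 (0.829), and for Uchl1 Plk1 (0.789) and Srp14 (0.734). The nascent values kept r at 0.867 or more for the 5 genes like Kit and at 0.1 and -0.008 for the 2 like Uchl1. Nascent r was 0.940 and 0.975 for the genes like Dmrt1 and 0.977 and 0.990 for those like Rhox13. It was lower for Kdm1b (0.832), Cul4b (0.825), Foxn2 (0.680), Usp2 (0.738) and Fbxo3 (0.756), and 0.953 for Phlpp1.

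Genes that act with KIT were described from a list of 29, of which 28 were tested in total RNA. From leptotene to pachytene 11 of the 28 fell and 3 rose, with a list median of -0.16 beside -0.07 for all genes, of which 17.9% fell and 22.4% rose. From spermatogonia to pachytene 13 fell and 2 rose, with medians of -0.61 and -0.14, beside 29.8% of all genes that fell and 23.1% that rose. In the 9-library fit 12 fell and 7 rose from leptotene to pachytene, and with the animal as a block 5 fell and 0 rose. Of all genes 27.6% and 9.68% fell in these fits, and the shares that rose are not given here. Without leptotene library 1, 0 genes of this list or of the 5 lists that follow were called from leptotene to pachytene in total RNA. Foxo3, a transcription factor downstream of KIT and AKT, averaged 27.4 ± 8.36 FPKM in spermatogonia (SD, n = 2 animals), 12.2 ± 3.40 in leptotene (n = 3) and 0.499 ± 0.286 in pachytene (n = 2). It fell by 4.27 ± 0.44 from spermatogonia to pachytene (limma adjusted p = 0.000833). The adaptor Grb2 fell by 3.26 ± 0.56 and the kinase Fyn fell by 2.85 ± 0.45 in that step (adjusted p = 0.00185 and 0.00137). Among the genes that rose in total RNA from leptotene to pachytene were Cbl, a ubiquitin ligase for receptor kinases, and the kinase Mtor (1.51 ± 0.34 and 1.15 ± 0.37; both were named after their values were seen).

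Kitl, which encodes the KIT ligand, was also named after its values were seen. It was 3.06, 5.84 and 3.92 FPKM in total RNA of spermatogonia, 0.984 in preleptotene, 0.0957 to 0.685 in leptotene and 0 to 0.0749 in pachytene. It fell from spermatogonia to leptotene (-1.79 ± 0.25, adjusted p = 0.00394). The Sertoli cell markers were high in the same libraries (168 to 230 FPKM), and their part in the Kitl level was not tested. The receptors most related to KIT, Pdgfra, Csf1r and Pdgfrb, all fell from spermatogonia to pachytene (-2.38 ± 0.46, -1.96 ± 0.26 and -1.64 ± 0.28), 3 of the 3 tested of 4 listed. In that step 29.8% of all genes fell. Csf1r, known from macrophages, averaged 3.63 ± 1.24 FPKM in spermatogonia and 0.229 ± 0.0980 in leptotene, and Pdgfra, known from stromal cells, 5.02 ± 1.87 and 1.85 ± 1.39. Markers of macrophages and of peritubular cells were high in the same spermatogonia libraries, and their part was not tested.

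Among 19 other genes known from differentiating spermatogonia, 0 were called from spermatogonia to leptotene in total RNA, beside 9.87% of all genes. At an unadjusted p under 0.05 there were 3 (Ccnd2, Elavl2 and Prdm9), with no share of all genes given for that threshold. From leptotene to pachytene 12 fell and from spermatogonia to pachytene 15, beside 17.9% and 29.8% of all genes. The list medians of the last 2 steps were -2.66 and -2.57, beside -0.07 and -0.14 for all genes. In nascent RNA 12 and 15 fell as well, beside 15.8% and 27.9% of all genes, with medians of -2.20 and -2.62. The count of 0 from spermatogonia to leptotene in total RNA turned to 6 rises and 1 fall of 18 tested in the 9-library fit. There 18.7% of all genes fell. The share that rose is not given here, so the rises are not read as a trait of the list. Taf7l, an X-linked relative of a general transcription factor, averaged 45.9 ± 9.17 FPKM in spermatogonia (SD, n = 2 animals), 72.7 ± 16.2 in leptotene (n = 3) and 2.55 ± 2.97 in pachytene (n = 2), and fell by 4.71 ± 0.54 from leptotene (limma adjusted p = 0.00314). Usp26, an X-linked deubiquitinase, and Lin28a, an RNA-binding protein, both fell from spermatogonia to pachytene (-4.37 ± 0.65 and -4.18 ± 0.61) (adjusted p = 0.00123 and 0.0012). Stra8, the retinoic acid target needed for meiotic entry and named after its values were seen, was 12.5 to 25.7 FPKM in spermatogonia, 21.5 in preleptotene, 4.56 to 31.3 in leptotene and 0 to 1.88 in pachytene. Library 2 held its lowest leptotene and library 3 its highest pachytene value, as for Sohlh1.

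Of 18 genes known from undifferentiated spermatogonia, 14 were tested in total RNA. Of these, 3 fell from spermatogonia to leptotene (Etv5, Gfra1 and Ret), beside 9.58% of all genes. In pachytene relative to spermatogonia 11 fell and 1 rose, beside 29.8% and 23.1% of all genes, with a median of -1.68 beside -0.14. With the animal as a block 7 fell in that step, beside 17.5% of all genes. Zbtb16, a repressor that maintains the undifferentiated state, averaged 37.3 ± 22.4 FPKM in spermatogonia, 12.4 ± 4.37 in leptotene and 0.630 ± 0.582 in pachytene, and fell by 4.54 ± 0.51 from spermatogonia to pachytene (limma adjusted p = 0.000845). Sox3, on the X chromosome, fell by 3.96 ± 0.48 in the same step (adjusted p = 0.000896). Id4 went the other way, at 4.46 ± 0.622, 5.18 ± 6.25 and 36.6 ± 9.69 FPKM. It rose by 3.35 ± 0.49 from leptotene to pachytene (adjusted p = 0.00318), and leptotene library 2 held 23.7 FPKM against 1.12 to 1.82 in the other leptotene libraries.

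Of 19 relatives of the DMRT, RHOX and UCH families, 15 were tested in total RNA. In pachytene relative to spermatogonia 9 fell and 2 rose, beside 29.8% and 23.1% of all genes, with a median of -1.24 beside -0.14. Dmrtc2, a DMRT relative known from pachytene cells, averaged 7.39 ± 0.826 FPKM in spermatogonia (SD, n = 2 animals), 24.1 in the preleptotene library, 23.3 ± 9.40 in leptotene (n = 3) and 50.9 ± 10.4 in pachytene (n = 2), and rose from spermatogonia to pachytene by 2.61 ± 0.47 (limma adjusted p = 0.00212). Dmrtc1a and Dmrta1 both fell in that step (-2.51 ± 0.33 and -2.49 ± 0.30, adjusted p = 0.00102 and 0.000904). Among the RHOX genes, Rhox8 was called lower from spermatogonia to leptotene in both assays, beside 9.58% of all genes that fell in total RNA. Its total RNA was low, at 1.57 to 3.63 FPKM in spermatogonia and 0.117 to 0.476 in leptotene. The Sertoli cell markers were high in the same spermatogonia libraries, and their part was not tested. Rhox1, Rhox10 and Rhox11 were called lower from leptotene to pachytene in total RNA, and of these 3 Rhox11 was also called in nascent RNA. Of all genes 17.9% and 15.8% fell in this step. In total RNA of leptotene Rhox10 was at 0 to 3.3 FPKM and Rhox11 at 0.262 to 2.47, so these falls were of low levels. The courses of these genes were not tested against each other.

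Of 15 genes of retinoic acid signalling, 11 were tested in total RNA. Between spermatogonia and leptotene 4 fell and 0 rose, beside 9.58% of all genes that fell. In pachytene relative to spermatogonia 9 fell and 1 rose (Aldh1a2), beside 29.8% and 23.1% of all genes, with a median of -2.06 beside -0.14. With the animal as a block 3 and 6 fell in these steps. Of all genes 17.5% fell in the second of them, and the share in the first is not given here. Aldh1a1, an enzyme of retinoic acid synthesis in Sertoli cells, averaged 73.5 ± 57.1 FPKM in spermatogonia and 1.78 ± 1.36 in leptotene, and fell by 5.56 ± 0.62 from spermatogonia to pachytene (limma adjusted p = 0.000835). Cyp26b1, a retinoic acid-degrading enzyme of somatic cells, averaged 43.9 ± 36.2 and 6.62 ± 4.63 FPKM and fell by 4.77 ± 0.70 (adjusted p = 0.00122). The summed somatic markers fell across the same stages, and their part in these levels was not tested. Rxra, a nuclear receptor for retinoids, averaged 15.7 ± 5.91, 7.03 ± 1.71 and 0.316 ± 0.229 FPKM, and fell by 3.65 ± 0.41 (adjusted p = 0.000845).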

How the data were processed

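Total and EU-labelled RNA from sorted germ cells were sequenced after a strand-keeping library preparation, with ribosomal RNA depleted for total RNA only, per the labels' protocols. STAR 2.5.2a, StringTie and mm10 are named in the submitters' processing notes; annotation and strand setting are not given in the sources used here. The deposited values are FPKM per gene, and the 5S-corrected table holds a nascent signal that equals the deposited FPKM times 1 constant per library. Low FPKM values lay within 0.05 of whole reads for 37.35% to 51.21% of values, so reads were not recovered and no count test was run.

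Values were put on the scale log2(FPKM + 1), averaged within each animal and stage, and tested with limma 3.58.1 in R 4.3.3 (trend, two-sided, Benjamini-Hochberg adjustment over all genes that reached 1 FPKM in 2 or more libraries). A change was called at an adjusted p under 0.05, and fold changes on this scale understate those of low genes. Preleptotene, with 1 library, stayed out of the fits. For the fit of the 5S-corrected signal, all values were first multiplied by 1 common constant so that the mean sum equalled the uncorrected one. The change of total against nascent RNA was an interaction term. The labels use the same library numbers in both assays but different animal numbers. Libraries of IND1, IND2, IND3 and IND4 in total RNA match by number those of IND5, IND6, IND7 and IND8 in nascent RNA. Whether these are the same animals is not given in the sources used here. Deviations from the stage mean of same-numbered libraries correlated at 0.122 to 0.791 over 15914 genes in all 11 pairs, so a paired fit was added after seeing the data. For leptotene libraries 1 and 4 another number of the stage correlated higher (0.495 against 0.471 and 0.432 against 0.421). For pachytene library 4 it was close, at 0.118 against 0.122. The labels give the animal of each library, and the animal served as a block in an alternative. Deviations of spermatogonia and leptotene from the same animal correlated at 0.015 and 0.080 over 19202 genes in total and at -0.119 and -0.160 over 16375 genes in nascent RNA.

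Alternatives were a pseudocount of 0.1, no filter, spike-in or median-ratio scaling, the animal as a random effect or as a block, the 9 libraries of the 5S-corrected table, and leaving out each library or animal. On data simulated for leptotene against pachytene, the test recovered 59% of changes of log2 2 and 88% of log2 4 among 19202 genes in total RNA, and 48% and 89% among 16375 in nascent RNA. Few genes changed in these simulated data, and the noise was drawn independently for each gene. In the real total RNA 17.9% of genes fell and 22.4% rose, so the recovered shares hold for the simulated setting only. Named genes are the 7; the 5 genes most correlated with Kit and 2 with each other gene (mean of at least 5 FPKM in a stage); and from each list up to 3 called in total RNA with the largest change. Members and lists were chosen with earlier results of these data known. The values of 1 gene of the list of genes that act with KIT are not reported here.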

Additional observations from a re-analysis of the deposited data

Results flagged for a closer look

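In the 28 stage groups of 4 libraries tested over the 7 genes on log2(FPKM + 1), 3 had a library that stood apart from the others by Dixon's criterion, which chance meets in about 1 group in 20. The criterion was not applied to raw FPKM, where other groups also held a far value. One was total Dmrtb1 in leptotene library 2, at 106 against 2.35 to 15.5 FPKM. All 3 groups that met the criterion did so through pachytene library 3. Its total RNA of Dmrt1 was 4.36 FPKM against 0.305 to 0.492 in the other pachytene libraries, and that of Rhox13 was 2.34 against 0 to 0.229. Its nascent Sohlh1 was 0.222 FPKM, and the other 3 libraries were listed at 0, where any value above 0 meets the criterion. The 5 spermatogonial markers outside the 7 genes were also higher there, at 9.94 against 0.886 to 1.35 FPKM in total RNA. Their part in these values was not tested.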

How the results depend on the processing

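Over all alternatives for the 7 genes, 1574 values kept their direction and side of the threshold, 91 changed sign, 52 lost and 26 gained a call. The cause was not tested. Over all genes, the counts called from spermatogonia to leptotene in total RNA were 3396 with the animal as a random effect and 4954 with 9 libraries. With the animal as a replicate block, 4464 and 6139 genes were called in the pachytene comparisons of total RNA, 3326 in nascent RNA from spermatogonia to leptotene and 3128 from leptotene to pachytene. Block calls that differed for the 7 genes stand beside their results, and the block changed no other call of theirs. Nascent counts from spermatogonia to leptotene were 1132 with median-ratio scaling, 2892 with a random effect, 5865 with 9 libraries and 4358 in the 5S-corrected table, and from leptotene to pachytene 8324 with 9 libraries. Spike-in scaling left 0 in all 3 nascent comparisons. The contrast of the assays gave 121, 38 and 306 genes with no filter, 4, 13 and 124 with a random effect, 11, 405 and 225 with 9 libraries, 0 and 1 in the pachytene steps with spike-in scaling, and 8 and 7 there with the assays paired by library number, a pairing chosen after seeing the data.

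Leaving out 1 library or animal moved the total RNA counts over 171 to 2978, 9 to 10224 and 5944 to 10948, the nascent counts over 184 to 4167, 1324 to 6513 and 4261 to 7740, and the counts of the contrast over 0 to 1, 1 to 172 and 0 to 37 (steps from spermatogonia to leptotene, leptotene to pachytene and spermatogonia to pachytene). The lowest counts were without spermatogonia animal IND3 (171), leptotene library 1 (9 and 1324) and spermatogonia animal IND7 (184), and 2978 and 4167 were without leptotene library 3.

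Sign changes by spike-in scaling in total or nascent RNA were 0.44 and -0.14 (Dmrtb1, total leptotene to pachytene and nascent spermatogonia to pachytene), -0.17 and 0.043 (Rhox13, spermatogonia to leptotene) and 0.31 (Uchl1, total leptotene to pachytene). In the contrast of the assays they were -0.25 (Kit), 0.67 and 0.97 (Dmrt1), 0.066 (Dmrtb1), 0.87 and 0.94 (Sohlh2) and -0.21, 0.85 and 0.64 (Rhox13). The replicate block gave -0.27 and -2.11 (nascent Dmrtb1), -0.26 (total Rhox13) and, in the contrast, 0.049 (Dmrt1), 0.45 (Dmrtb1) and 0.22 (Sohlh2). The random effect gave 0.28 (total Dmrtb1), -0.35 (nascent Uchl1) and 0.065 (contrast, Uchl1). The 9 libraries gave 1.24 (total Dmrtb1), 0.10 (total Sohlh1) and -0.26 (contrast, Kit). Median-ratio scaling gave 0.082 (nascent Rhox13), a pseudocount of 0.1 gave 0.12 (contrast, Sohlh2) and the 5S-corrected table gave -1.40 (nascent Uchl1).

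Leaving out 1 library or animal changed a sign for the following, with lowest and highest log2 difference. In nascent RNA from spermatogonia to leptotene these were Dmrtb1 -1.83 to 0.19, Rhox13 -0.71 to 0.49 and Uchl1 -0.91 to 0.98. In the contrast of the assays from leptotene to pachytene these were Kit -0.26 to 0.92. In the contrast of the assays from spermatogonia to leptotene these were Kit -0.50 to 0.82, Dmrtb1 -0.35 to 1.67, Rhox13 -0.37 to 0.83 and Uchl1 -1.95 to 0.66. In the contrast of the assays from spermatogonia to pachytene these were Kit -0.17 to 1.15, Dmrt1 -0.66 to 0.36, Sohlh2 -0.53 to 0.36, Rhox13 -1.001 to 0.20 and Uchl1 -0.20 to 2.41. In total RNA from leptotene to pachytene these were Dmrtb1 -1.28 to 0.39 and Uchl1 -0.69 to 0.22. In total RNA from spermatogonia to leptotene these were Dmrtb1 -1.001 to 0.67, Sohlh2 -0.69 to 0.22, Rhox13 -0.35 to 0.60 and Uchl1 -1.92 to 0.69. In total RNA from spermatogonia to pachytene these were Dmrtb1 -1.43 to 0.20 and Uchl1 -2.15 to 0.46.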
